A study of Mus musculus with 9 samples.

Results

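The Hippo pathway genes described here are 10 named genes of the 21887 protein-coding genes tested. They are the TEAD transcription factors Tead1, Tead2, Tead3 and Tead4, the co-activators Yap1 and Wwtr1 (which encodes TAZ), the targets Ccn1 and Ccn2, and the kinases Lats1 and Lats2. They were chosen by name, and a gene was counted as near Sox2 binding when a listed summit, the position of highest ChIP signal in a called region, lay inside its RefSeq span or within 50 kb of it. ChIP-seq, the sequencing of DNA that an antibody to Sox2 pulls down with crosslinked chromatin, was run on lung epithelial cells of C57BL/6 mice, with an age of 8 weeks on the labels. The 3 Sox2 ChIP libraries came from wildtype cells, from cells with ectopic Sox2 expression, and from cells with both ectopic Sox2 expression and Nkx2-1 deletion. The other 6 of the 9 libraries, input DNA and ChIP with IgG from the same conditions, were not analysed here. The sources used here do not give how Sox2 was expressed or Nkx2-1 deleted, in which lung cell type, or whether animals were pooled. Each condition had 1 library, so there is no replicate check, no p-value between conditions, and every interval covers counting error only. A list of summits carries no expression value, so neither the lung epithelial identity nor the altered Sox2 and Nkx2-1 could be checked by markers.

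In the Hippo pathway, Lats kinases phosphorylate YAP and TAZ and keep them out of the nucleus. When the kinases are inactive, YAP and TAZ enter the nucleus, bind TEAD factors on DNA, and raise genes such as Ccn1 and Ccn2, which encode secreted matricellular proteins. In lung epithelium the pathway is known for its part in airway basal cells, alveolar type 1 cells and regeneration, and Sox2 is known as a transcription factor of the proximal airway and oesophagus.

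The RefSeq promoter sequences (GRCm38.p6, from 250 bases before an annotated start to 50 bases after it) covered 7 of the 10 genes in 11 windows, with no entry for Tead1, Tead4 and Ccn2. The letters GGAATG, the core of the element that TEAD factors bind, were searched on both strands, where the opposite strand reads CATTCC. They occurred in a window of 5 of the 7 genes, Yap1, Wwtr1, Ccn1, Tead3 and Lats2, and in 7 of the 11 windows. Over the whole table they occurred in 15.5% of the 17492 protein-coding genes and 13.6% of windows. The Wwtr1 windows overlap and share their match. In the bases before the start alone, GGAATG occurred in 4 genes, without Lats2, and in 11.7% of all windows. The windows of 4 genes are shown. Yap1 had a summit close by, and Tead3 had the most matches. Wwtr1 was added as the other co-activator gene beside Yap1, and Ccn1 as the other target gene beside Ccn2. Capitals mark GGAATG or CATTCC, and each window reads 5′ to 3′ on the gene's own strand, which is the minus strand for all 4.
Yap1, chr9:8004547-8004846: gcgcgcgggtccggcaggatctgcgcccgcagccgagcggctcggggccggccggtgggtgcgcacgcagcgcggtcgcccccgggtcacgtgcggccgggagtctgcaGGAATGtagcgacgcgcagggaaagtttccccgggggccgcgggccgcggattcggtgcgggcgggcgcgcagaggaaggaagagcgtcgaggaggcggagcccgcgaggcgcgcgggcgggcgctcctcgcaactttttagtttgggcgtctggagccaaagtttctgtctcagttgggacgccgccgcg
Wwtr1, chr3:57575861-57576160: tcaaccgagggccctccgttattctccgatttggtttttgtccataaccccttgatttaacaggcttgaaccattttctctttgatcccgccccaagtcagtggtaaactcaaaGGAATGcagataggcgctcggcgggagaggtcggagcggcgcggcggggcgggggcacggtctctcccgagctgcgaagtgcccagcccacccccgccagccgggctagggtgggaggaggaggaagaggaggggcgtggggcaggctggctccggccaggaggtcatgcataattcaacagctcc
Ccn1, chr3:145649936-145650235: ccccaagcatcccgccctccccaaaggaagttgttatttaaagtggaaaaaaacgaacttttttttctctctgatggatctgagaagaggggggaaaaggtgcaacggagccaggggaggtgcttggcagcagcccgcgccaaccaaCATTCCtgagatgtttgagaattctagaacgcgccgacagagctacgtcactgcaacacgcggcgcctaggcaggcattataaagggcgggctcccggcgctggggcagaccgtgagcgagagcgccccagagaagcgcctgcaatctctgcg
Tead3, chr17:28350551-28350850: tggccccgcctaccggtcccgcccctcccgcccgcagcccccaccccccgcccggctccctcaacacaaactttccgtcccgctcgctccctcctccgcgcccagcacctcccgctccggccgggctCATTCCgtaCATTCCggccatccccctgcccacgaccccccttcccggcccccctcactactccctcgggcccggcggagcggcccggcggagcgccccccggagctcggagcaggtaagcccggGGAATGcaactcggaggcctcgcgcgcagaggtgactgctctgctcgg
In Yap1 the match begins 141 bases before the annotated start. In Wwtr1 it begins 136 bases before the start and in Ccn1 103 bases before it. This Tead3 window holds 3 matches, and a further Tead3 window holds another, so that Tead3 had 4 separate positions. Among Sox motif letters, ACAAAG occurred in Tead2 alone (19.1% of all genes in the table) and ACAAT in Tead3 and Lats2 (31.3%). The AP-1 letters TGANTCA occurred in 0 of the 7 (8.12%). No listed region near the 10 genes overlapped any RefSeq promoter window in the table, so these letters describe the genes and not the bound regions. For Tead1 and Ccn2, which have no window there, overlap with their own promoter could not be checked. The sequences of the bound regions were not used here.

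Of the 10 Hippo genes, 1 had a summit in wildtype, where 2.85% of all protein-coding genes had one. With ectopic Sox2, 1 of the 10 had a summit (1.53% of all genes), and with ectopic Sox2 and Nkx2-1 deletion 3 of 10 had one (13.1% of all genes). The gene in wildtype and with ectopic Sox2 was Tead1, and with Nkx2-1 deletion the genes were Tead1, Yap1 and Ccn2. In each library the median number of summits per gene was 0 for the 10 genes and 0 for all genes. The 10 genes had 1, 1 and 6 summits in the 3 libraries, in the order given above. Yap1 and Ccn2 were near a summit of the Nkx2-1 deleted list alone, as were 11% of all genes. Tead2, Tead3, Tead4, Wwtr1, Ccn1, Lats1 and Lats2 had none within 50 kb in any list. The largest distance counted as near was 33.4 kb, at Tead1, and the smallest left out was 54.2 kb, at Wwtr1. Long genes give more room for a summit: Tead1, Tead4, Yap1 and Wwtr1 belong to the longest of 5 length classes with about equal numbers of genes. Of that class 24.1% had a summit with Nkx2-1 deletion, against 10.4% of all shorter genes. In wildtype the shares were 5.8% and 2.11%, and with ectopic Sox2 2.65% and 1.25%, in the same order. The map of summits by distance shows that Tead1 is the gene with a summit in each library.

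The same genes were counted under other rules. Within 10 kb the count was 1 of 10 in wildtype (1.37% of all genes), 1 with ectopic Sox2 (0.736%) and 3 with Nkx2-1 deletion (6.47%), with the same genes as at 50 kb. Within 100 kb it was 1 (4.66%), 1 (2.45%) and 5 (20.7%) in the same order, where Tead4 and Wwtr1 were added with Nkx2-1 deletion. Assigning each summit to its nearest gene gave 2 (2.19%), 1 (1.02%) and 3 (8.51%), and the gene added in wildtype was Ccn2. Requiring a −log10 q of at least 5 gave 1 (1.88%), 1 (1.18%) and 2 (8.83%), without Yap1. Tead1 was counted in every library under each of these rules. Its summit lay inside the span in each list, so the window and nearest-gene rules could not have removed it. The −log10 q of that summit was 6.06 or more in each list. Leaving out regions that overlapped in all 3 lists removed Tead1 from wildtype (0 of 10, and 2.55% of all genes) and from ectopic Sox2 (0 of 10, 1.21%), and kept 3 of 10 with Nkx2-1 deletion (12.9%). With a reciprocal overlap of 50% these counts were the same, against 2.57%, 1.24% and 12.9% of all genes.

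**Figure D1:**
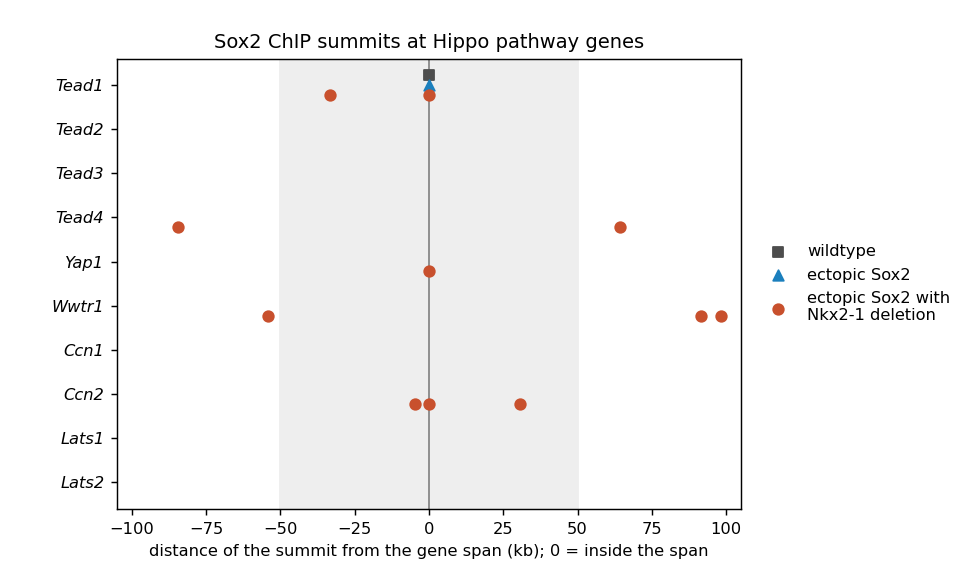
Distance of each Sox2 ChIP summit from the gene span in kb (negative on the side of lower coordinates, 0 inside the span) for the 10 Hippo genes, by library; the grey band marks 50 kb. Tead1 has a summit inside the span in all 3 libraries, and every other point belongs to the library with ectopic Sox2 and Nkx2-1 deletion.

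Depth and list length differed between the libraries. The Nkx2-1 deleted list held 2589 summits, the wildtype list 552 and the ectopic Sox2 list 229. The fold enrichment and −log10 p of each summit, as the authors' peak caller gave them, fix the number of ChIP fragments there and the control background, and these were recovered. Depth, recovered as mean ChIP coverage in fragments per position, was 1.45 with Nkx2-1 deletion, 0.963 for wildtype and 0.764 for ectopic Sox2. All fold and −log10 q values below are the authors' own and rank summits within 1 list.

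Tead1 encodes a TEAD factor, the DNA-binding partner of YAP and TAZ, and was the Hippo gene with Sox2 ChIP signal in all 3 lists. Its span, chr7:112679356-112906784, held 1 summit per library. In wildtype the region was chr7:112823692-112823921, with 39 fragments (exact Poisson 95% interval 27.7 to 53.3), a fold of 5.98 and a −log10 q of 9.75. With ectopic Sox2 it was chr7:112823663-112823923, with 38 fragments (26.9 to 52.2), a fold of 6.31 and a −log10 q of 8.90. With Nkx2-1 deletion it was chr7:112823645-112823880, with 53 fragments (39.7 to 69.3), a fold of 4.69 and a −log10 q of 6.06. The 3 summits lay within 28 bp of each other, 144 kb from the end of the span at lower coordinates and about 83.0 kb from the other. Whether this position is exonic or intronic was not told apart, and the tables used give no strand for Tead1. Within each list, 83.7% of wildtype summits, 77.3% of those with ectopic Sox2 and 53.8% of those with Nkx2-1 deletion had a lower −log10 q than this one. No other protein-coding gene lay within 50 kb of it.

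Divided by mean coverage, the Tead1 region had 40.5 in wildtype (28.8 to 55.3), 49.7 with ectopic Sox2 (35.2 to 68.3) and 36.5 with Nkx2-1 deletion (27.3 to 47.7). The value with ectopic Sox2 was the highest and that with Nkx2-1 deletion the lowest, but the 3 intervals overlapped. The depth-scaled ratio of Nkx2-1 deletion to ectopic Sox2 was 0.734 (exact conditional binomial 95% interval 0.475 to 1.14). The ratio of Nkx2-1 deletion to wildtype was 0.902 (0.585 to 1.4) and that of ectopic Sox2 to wildtype 1.23 (0.765 to 1.97). All 3 intervals included 1. Scaled instead by the median ratio of regions found in both lists, the ratio of Nkx2-1 deletion to ectopic Sox2 was 0.579 (0.375 to 0.903), an interval below 1. That scaling gave 0.673 (0.437 to 1.05) for Nkx2-1 deletion to wildtype.

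**Figure D2:**
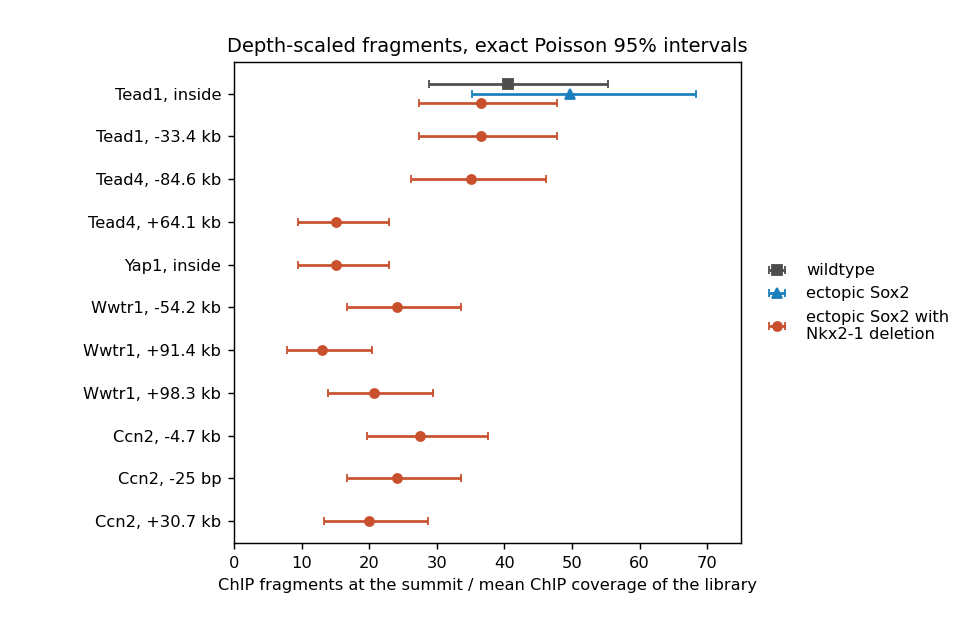
ChIP fragments at each summit within 100 kb of a Hippo gene, divided by the mean ChIP coverage of the library, with exact Poisson 95% intervals; rows give the gene and the distance from its span. The 3 libraries overlap at the Tead1 region, and the other summits, listed with Nkx2-1 deletion alone, lie between 13.1 and 36.5.

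The Tead1 region was 1 of 62 regions of the Nkx2-1 deleted list that overlapped a region of both other lists by at least 1 bp. Of all protein-coding genes, 0.338% had such a region within 50 kb, and 0.484% had any summit in each of the 3 lists. In the longest length class, to which Tead1 belongs, 1.05% had a summit in each of the 3 lists. Across the 62 regions the median depth-scaled ratio of Nkx2-1 deletion to ectopic Sox2 was 1.32, and 56 regions had a higher ratio than Tead1 while 5 had a lower one. Against wildtype the median was 1.25, with 47 regions above Tead1. For ectopic Sox2 over wildtype the median was 0.953, and Tead1 stood higher than 50 of the 62. The Tead1 region thus lay on the low side of these regions for Nkx2-1 deletion and on the high side for ectopic Sox2 over wildtype, with mean-coverage ratios whose intervals included 1. The control background there was 5.60, 6.15 and 6.51 times the genome-wide level in wildtype, ectopic Sox2 and Nkx2-1 deletion. The median over each whole list was 2.80, 2.46 and 3.25, and over regions found in all 3 lists 6.17, 4.10 and 8.13. The part of the control background in this shared signal was not tested.

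**Figure D3:**
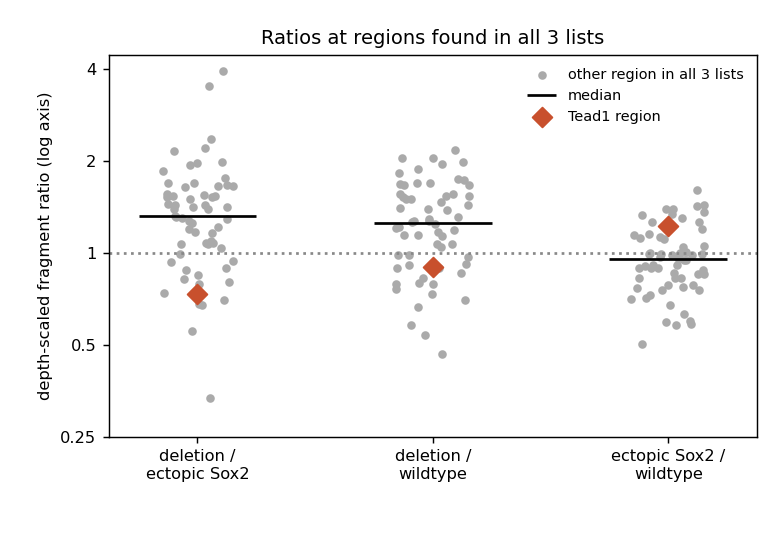
Depth-scaled fragment ratios (log axis) between pairs of libraries at the 62 regions found in all 3 lists; the diamond is the Tead1 region, the bar the median, and the dotted line 1. Tead1 lies at 0.734 and 0.902 for Nkx2-1 deletion over the other libraries, below the medians of 1.32 and 1.25, and at 1.23 for ectopic Sox2 over wildtype, above the median of 0.953.

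A further Tead1 summit was listed with Nkx2-1 deletion alone, 33.4 kb outside the span on its lower side, at chr7:112645873-112646077. It had 53 fragments (39.7 to 69.3), a fold of 5.86 and a −log10 q of 8.22, and Tead1 was the only protein-coding gene within 50 kb. This was as many fragments as the region inside Tead1 had in that library, on a lower control background of 4.88 times the genome-wide level.

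The other TEAD genes had no summit within 50 kb in any library. Tead4, which lies at chr6:128227143-128300813, had its nearest summits 64.1 kb away with Nkx2-1 deletion, 286 kb away in wildtype and 1861 kb away with ectopic Sox2. Tead3, at chr17:28331671-28350805, had its nearest at 309 kb in wildtype and 308 kb with ectopic Sox2, and at 442 kb with Nkx2-1 deletion. The wildtype and ectopic Sox2 summits near Tead3 had 39 and 29 fragments. Tead2, at chr7:45215792-45233468, had its nearest summit 235 kb away with Nkx2-1 deletion 7932 kb away for wildtype and 9568 kb away for ectopic Sox2.

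Of the co-activators, Yap1, which encodes YAP, had 1 summit, listed with Nkx2-1 deletion. It lay inside the gene (chr9:7931999-8004638, minus strand), 1082 bp downstream of the annotated start whose promoter is printed above. The region, chr9:8003399-8003609, had 22 fragments (13.8 to 33.3), a fold of 5.16 and a −log10 q of 3.23, and 14.8% of summits in that list had a lower −log10 q. It was therefore among the weaker summits of its list, and it fell outside the list when a −log10 q of at least 5 was required. Cfap300 also lay within 50 kb. The nearest summit to Yap1 was 6570 kb away in each of the other lists, at Amotl1 on the same chromosome. Wwtr1, which encodes TAZ and spans chr3:57455644-57575910, had none within 50 kb, and its nearest summits lay 54.2 kb away with Nkx2-1 deletion and 1307 kb away in each of the other lists.

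Of the targets, Ccn2 (chr10:24595442-24598683), also known as connective tissue growth factor, had 3 summits with Nkx2-1 deletion and none within 50 kb in the other lists. The strongest lay 4.74 kb outside the span on its lower side, at chr10:24590574-24590820, with 40 fragments (28.6 to 54.5), a fold of 8.97 and a −log10 q of 10.3. It had the highest fold and −log10 q of the 6 Hippo summits in this list, and 82.3% of the list had a lower −log10 q. The second lay 25 bp outside the lower end of the span, at chr10:24595314-24595567, with 35 fragments (24.4 to 48.7), a fold of 3.95 and a −log10 q of 2.58. The third lay 30.7 kb beyond the other end, at chr10:24629245-24629493, with 29 fragments (19.4 to 41.6), a fold of 4.43 and a −log10 q of 3.01, and its nearest gene was Enpp1. Control background at the 3 was 1.63, 4.88 and 3.25 times the genome-wide level in that order, so the strongest stood on the lowest background.

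Of all protein-coding genes, 0.726% had 3 or more summits within 50 kb with Nkx2-1 deletion, and of the shortest length class, to which Ccn2 belongs with a span of 3.24 kb, 0.183% (8 genes) did. This count was set beside Ccn2 after its value was seen. In wildtype the nearest summit lay 129 kb from Ccn2, with 14 fragments and a fold of 6.64, and with ectopic Sox2 3091 kb away. Ccn1, which encodes the related protein CYR61 and spans chr3:145646971-145649985, had its nearest summit 654 kb away with Nkx2-1 deletion. In the wildtype list its nearest lay at 2640 kb and in the ectopic Sox2 list at 5702 kb. The pair of targets thus differed in the Nkx2-1 deleted list, with 3 summits near Ccn2 and 0 near Ccn1. The Ccn2 summits with a −log10 q of 2.58 and 3.01 were among the weaker of that list. Of its summits, 9.58% and 11.9% had a lower −log10 q, in that order. Only the strongest Ccn2 summit, at 10.3, passed a −log10 q of at least 5. Of the shortest length class, 5.94% of genes had a summit in this list, so Ccn1 was like most of that class.

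The kinase genes had no summit within 50 kb in any list. Lats1, at chr10:7681200-7716461, had its nearest 237 kb away with Nkx2-1 deletion, where that summit had 42 fragments and a fold of 9.39. In wildtype the nearest was 2649 kb away and with ectopic Sox2 2839 kb. Lats2, at chr14:57689662-57746212, had its nearest 137 kb away with Nkx2-1 deletion, with 27 fragments and a fold of 4.14, 3178 kb away in wildtype and 15365 kb away with ectopic Sox2.

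The Nkx2-1 deleted library was 1.51 times as deep as wildtype and 1.90 times as deep as ectopic Sox2. The 5 Hippo summits listed in it alone were therefore scaled to the depth of each other library and set beside the fragments that library needed to list a summit. The need was taken from its lowest listed −log10 p and the same relative control background. These summits were picked for being listed in the Nkx2-1 deleted library, which favours a high expectation, so the values are a description and do not tell depth from condition. For the strongest Ccn2 summit, 26.5 fragments (19.0 to 36.1) were expected in wildtype and 21.0 (15.0 to 28.7) with ectopic Sox2, where 11 were needed in each. For the Tead1 summit outside the gene, 35.2 (26.3 to 46.0) and 27.9 (20.9 to 36.5) were expected, where 19 were needed in each. At the other 3 positions the expected numbers lay closer to the need.

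Yap1 had 14.6 expected in wildtype (9.15 to 22.1) and 11.6 with ectopic Sox2 (7.25 to 17.5), where 11 were needed. The Ccn2 summit at the lower end of the span had 23.2 (16.2 to 32.3) and 18.4 (12.8 to 25.6), where 19 were needed. The Ccn2 summit beyond the other end had 19.2 (12.9 to 27.6) for a need of 17 in wildtype and 15.3 (10.2 to 21.9) for a need of 16 with ectopic Sox2. The expected number reached the need at all 5 positions in wildtype and at 3 of 5 with ectopic Sox2, where the last 2 Ccn2 summits fell short, and the intervals at Yap1 and those 2 Ccn2 summits included the need in both libraries. A stricter need, from the 5th percentile of the listed −log10 p, was reached at 5 positions in wildtype and at 2 with ectopic Sox2. There Yap1 needed 13 fragments. Across the whole Nkx2-1 deleted list, 88.6% of summits reached the first need in the ectopic Sox2 library while 4.60% overlapped a region listed there. For wildtype the shares were 99.5% and 10.5%. Reaching the need was thus the usual case for the list and sets no Hippo summit apart from it.

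**Figure D4:**
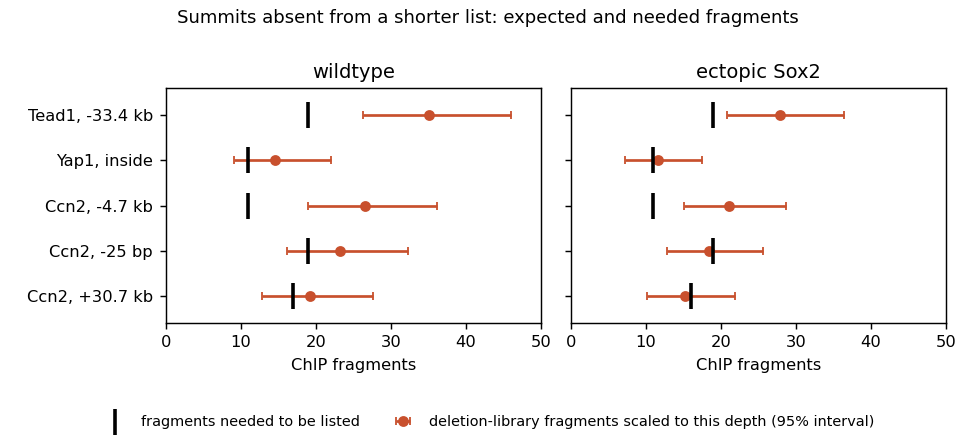
Fragments that the 5 Hippo summits listed with Nkx2-1 deletion alone would give at the depth of the wildtype (left) and ectopic Sox2 (right) libraries, with 95% intervals, beside the fragments needed to be listed (black bars). The need comes from the lowest listed −log10 p. The summits were picked for being listed with Nkx2-1 deletion. The expected number reaches the need at all 5 in wildtype and at 3 of 5 with ectopic Sox2, or 2 of 5 under the stricter need.

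Other genes of the pathway were taken from lists of 34 upstream regulators and cofactors and 22 genes known as targets of YAP and TAZ. Of the upstream genes, 3 of 34 had a summit in wildtype (8.82%, against 2.85% of all genes) and 2 with ectopic Sox2 (5.88%, against 1.53% of all genes). With Nkx2-1 deletion 6 had one (17.6%, against 13.1% of all genes). All 6 belong to the longest length class, which holds 19 of the 34 and of which 24.1% of genes had a summit. The upstream share with Nkx2-1 deletion was therefore near the background. In wildtype 2 of those 19 had a summit (5.8% of all genes of the class), and with ectopic Sox2 also 2 (2.65%). The upstream shares in wildtype and with ectopic Sox2 were above those of all genes, but rested on 3 and 2 genes. Wwc1, which encodes the scaffold KIBRA, had 1 summit 6.01 kb from the gene with Nkx2-1 deletion (39 fragments, fold 8.76), whose nearest gene was Rars. Stk3, which encodes the kinase MST2, had 1 within the gene (33 fragments), also with Nkx2-1 deletion. Sav1, the scaffold that joins the MST kinases to Lats, had 1 in wildtype alone, 10.2 kb from the gene (31 fragments). Pals1 (RefSeq symbol Mpp5), a polarity protein, had 1 inside the gene in wildtype (20 fragments) and 2 others with Nkx2-1 deletion, which lay outside it and nearest to Atp6v1d.

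Amotl1, which encodes an angiomotin that binds YAP, shared a summit inside the gene between wildtype (21 fragments) and ectopic Sox2 (15 fragments), with a depth-scaled ratio of ectopic Sox2 to wildtype of 0.901 (0.432 to 1.83). Its summit with Nkx2-1 deletion was a different one, 13.5 kb outside the gene, with 59 fragments on a control background of 11.4 times the genome-wide level. Ptpn14, a phosphatase that restrains YAP and is also a target, shared a summit inside the gene between ectopic Sox2 (23 fragments) and Nkx2-1 deletion (49 fragments), with a depth-scaled ratio of 1.12 (0.670 to 1.93) of the latter to the former. Both intervals included 1. The ectopic Sox2 summit at Ptpn14 had a −log10 q of 1.84, and 2.18% of that list had a lower one. A second summit inside Ptpn14, with 29 fragments, was listed with Nkx2-1 deletion alone. Ptpn14 is counted among both the upstream genes and the targets. Vgll4, which encodes a TEAD cofactor and was named after its values were seen, had 1 summit inside the gene with Nkx2-1 deletion (36 fragments).

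Of the 22 target genes, 9 had a summit with Nkx2-1 deletion (40.9%), 3 in wildtype (13.6%) and 2 with ectopic Sox2 (9.09%), against 13.1%, 2.85% and 1.53% of all genes. The median number of summits per gene was 0 for the list and for all genes in each library. With Nkx2-1 deletion, 5 of the 8 targets in the longest class had a summit (24.1% of all genes of that class), and 4 of the 14 shorter ones (10.4%). In wildtype 2 of the 8 had one (5.8%) and 1 of the 14 (2.11%). With ectopic Sox2 the counts were 2 of the 8 (2.65%) and 0 of the 14 (1.25%). The target list held 19 summits with Nkx2-1 deletion, with 29 to 78 fragments and a median of 47. No chance level was computed for a list of genes, and nothing particular to the targets follows from these counts.

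Fjx1, which encodes a secreted regulator of the Fat and Dachsous cadherins, had the highest −log10 q of the target genes, 17.5 at a summit 41.5 kb from the gene with 68 fragments. Trim44 was nearer to it, and a second Fjx1 summit, 15.3 kb from the gene, had 33 fragments. Myof, which encodes the membrane repair protein myoferlin, had 5 summits inside the gene with 39 to 78 fragments, on a control background of 4.88 to 11.4 times the genome-wide level of the Nkx2-1 deleted library. Areg, which encodes the Egf receptor ligand amphiregulin, had 1 summit 29.1 kb away (50 fragments) that was nearer to Ereg. Dock5, a guanine nucleotide exchange factor, had 1 inside the gene (29 fragments). All of these were listed with Nkx2-1 deletion and in neither other list.

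Rbms3, which encodes an RNA-binding protein and has a span of 1057 kb, had 5 summits with Nkx2-1 deletion, 2 in wildtype and 1 with ectopic Sox2. At 1 Rbms3 region, the deletion library had 75 fragments and wildtype 24, a depth-scaled ratio of 2.07 (1.29 to 3.43). The wildtype summit there had a −log10 q of 1.42, the lowest of its list. Control background at this region was 7.01 times the genome-wide level in wildtype and 11.4 times with Nkx2-1 deletion. Scaled by the median ratio of regions found in both lists, the ratio was 1.55 (0.966 to 2.56), an interval that includes 1. The other Rbms3 region shared with wildtype had a ratio of 1.18 (0.693 to 2.06), and the one shared with ectopic Sox2 had 1.08 (0.625 to 1.91). Asap1, Nt5e, Nuak2 and Igfbp3, named after their values were seen, were the remaining targets with a summit. Asap1 had the same region in wildtype (34 fragments) and with Nkx2-1 deletion (75 fragments), with a ratio of 1.46 (0.964 to 2.26). Nt5e (55 fragments, 1.53 kb from the gene) and Nuak2 (34 fragments, inside the gene) were listed with Nkx2-1 deletion, and Igfbp3 (29 fragments) in wildtype.

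**Figure D5:**
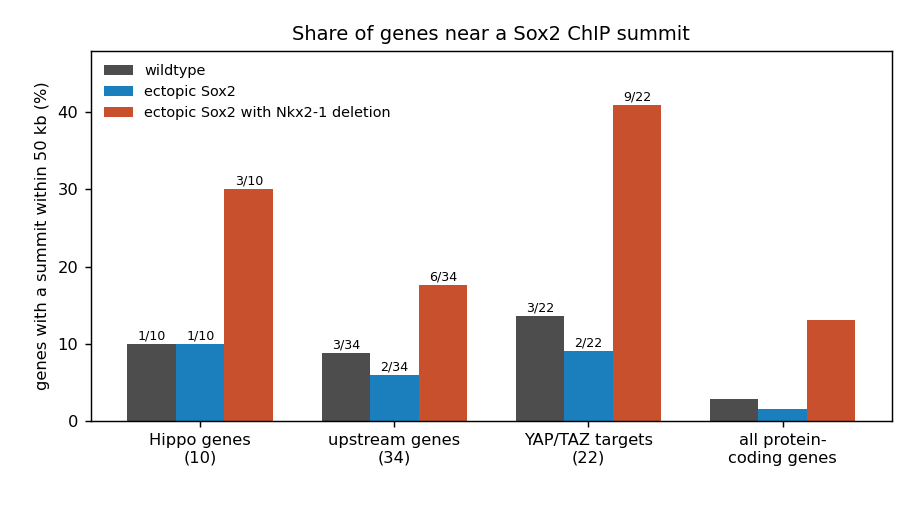
Percent of genes with a Sox2 ChIP summit within 50 kb, by library, for the 10 Hippo genes, the 34 upstream genes, the 22 YAP and TAZ targets and all protein-coding genes; labels give genes with a summit over genes in the list. The share is highest with Nkx2-1 deletion in each list and over all genes, from 13.1% of all genes to 40.9% of the targets.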

How the data were processed

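Sox2 ChIP libraries were single reads of 50 bp, per the labels' protocols, and the submitters' processing notes name Bowtie2 2.2.9, SAMtools 1.4, MACS2 2.1.1, HOMER 4.8.3 and build mm10. The sources used here do not give the control, threshold or duplicate filter behind each list. The authors' deposited lists, 1 per library, give each summit a score, a fold enrichment ratio, and −log10 p and −log10 q. The score was 10 times −log10 q cut to a whole number, and was not used further. Input DNA and IgG ChIP were not analysed here.

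Whole ChIP fragments and control background were solved from fold and −log10 p (pseudocount 1 in the fold, Poisson tail, tolerance 0.002 on whole fragments), which gave 1 solution for all summits but 1. The solver was tested on simulated data drawn from the same formulas, which cannot show that these formulas hold for the deposited lists. Depth is the recovered mean coverage. Genes are RefSeq protein-coding spans of GRCm38.p6, the build of mm10, and all 66 list entries matched. Positions are printed counting from 1. Intervals are 95% and exact: Poisson for fragments, conditional binomial for ratios. Whether the recovered fragments are separate molecules is unknown, and the intervals are too narrow where duplicates were kept. Python 3.11.15, numpy 2.4.6, scipy 1.17.1 and pandas 2.3.3 were used.

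All 10 Hippo genes were named. Of the further lists, up to 6 genes with a summit were named by the largest −log10 q. The members, lists and tests were chosen with earlier results of these data known. Alternatives were windows of 10 and 100 kb, nearest gene, −log10 q of at least 5, removal of regions in all 3 lists, reciprocal overlap of 50%, other scalings of ratios and a stricter need.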

Additional observations from a re-analysis of the deposited data

How the results depend on the processing

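Of 87 alternative values, 69 stayed within the tolerance set for them (1.5 times for a count, its 95% interval for a ratio), and 18 moved. The tolerance for a ratio was wide. At Tead1, the ratio of Nkx2-1 deletion to ectopic Sox2 stayed within it when scaled by shared regions. Yet its interval went from including 1 (0.475 to 1.14) to lying below 1 (0.375 to 0.903). Without regions found in all 3 lists, at an overlap of 1 bp or of a reciprocal 50%, Hippo genes and their summits numbered 0 in wildtype and 0 with ectopic Sox2, since both rested on the shared Tead1 region. With Nkx2-1 deletion 3 genes and 5 summits were left. By nearest gene, 2 Hippo genes with 2 summits were counted in wildtype (Tead1 and Ccn2) and 5 of the 34 upstream genes. That rule gave 2.19% of all genes a summit in wildtype. Within 100 kb, 5 Hippo genes with 11 summits were counted with Nkx2-1 deletion, where 20.7% of all genes had a summit. With −log10 q of at least 5, Hippo summits with Nkx2-1 deletion fell to 3, at 2 genes (Tead1 and Ccn2), against 8.83% of all genes. That setting left 0 of the 34 upstream genes with ectopic Sox2, and 1 of the 22 target genes each in wildtype and with ectopic Sox2. Of all genes it left 1.88% in wildtype and 1.18% with ectopic Sox2. In the bases before the start alone, ACAAT occurred in 1 gene. Motifs around summits were not run, since no genome sequence was used here. No paired analysis was possible because each condition has 1 library. Depth was lowest for ectopic Sox2 (0.764), where 2 of the 5 Hippo summits listed with Nkx2-1 deletion alone fell short of the need.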

Other observations

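Between 50 and 100 kb from the Hippo genes, the Nkx2-1 deleted list held 5 summits and the other lists held 0. Around Tead4 they lay 84.6 kb away on the lower side (51 fragments, 38.0 to 67.1) and 64.1 kb away on the higher side (22 fragments, 13.8 to 33.3). The nearest gene of the former was Tspan9, a tetraspanin gene, and of the latter Foxm1, a transcription factor of the cell division programme. Around Wwtr1 they lay 54.2 kb away (35 fragments), 91.4 kb away (19 fragments) and 98.3 kb away (30 fragments). Their nearest genes were Tm4sf1, which encodes a surface protein, for the first and Ankub1 for the other 2. By nearest gene, Tead4 and Wwtr1 were thus assigned no summit in any list.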
